A study of Mus musculus and Sus scrofa with 30 samples.

Results

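The comparison set 3T3-L1 cells given dicoumarol and magnolol together against 3T3-L1 cells given dicoumarol alone, and so asked what magnolol adds when dicoumarol is already present. Its members were the 3 libraries of the combination group and the 3 of the dicoumarol group, 6 of the 30 libraries of the series, chosen by their treatment labels. 3T3-L1 is an established line of mouse embryonic fibroblasts that turns into fat cells when induced. All 6 cultures received the same inducing medium, with 0.75 µg/mL insulin, 75 nM dexamethasone, 37.5 µM isobutylmethylxanthine (IBMX, a phosphodiesterase inhibitor) and 10% fetal bovine serum, and were collected on day 5 for bulk RNA sequencing of mRNA-enriched, strand-marked libraries. Dicoumarol is a coumarin anticoagulant that inhibits the quinone reductase NQO1, and magnolol is a lignan of magnolia bark. The labels state no compound doses. The other 3T3-L1 groups, of 3 libraries each, received DMSO vehicle, magnolol alone or rosiglitazone, a synthetic ligand of PPARγ, in the same medium, and the remaining 15 libraries, of pig dedifferentiated fat cells, were not used. Nothing in the labels says whether libraries of 1 group came from separate cultures, so the p-values measure the spread between these libraries, which may be technical.

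Fat cell formation from such fibroblasts runs through a cascade of transcription factors in which C/EBPβ and C/EBPδ, induced early, switch on PPARγ and C/EBPα. PPARγ, a nuclear receptor that binds DNA with RXR, and C/EBPα then maintain each other and drive the genes of the mature fat cell: lipid droplet coats, fatty acid carriers, triglyceride synthesis, lipases and adipokines. Mitochondrial pathways that feed lipid synthesis expand at the same time, while fibroblast, matrix and inflammatory genes decline. In bulk RNA, more fat cells in a dish and more RNA of these genes per fat cell cannot be told apart.

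The values were the authors' normalized counts, which compare 1 gene between libraries but not different genes with each other. The 6 libraries held an estimated 26.3 to 30.0 M reads, the 10 most abundant genes took 7.63% to 8.65% of each, and mitochondrially encoded genes took 6.14% to 7.72%. Libraries with the same replicate number deviated from their group means together: over the genes tested, the correlations of these deviations were 0.286 to 0.362 for the 3 same-numbered dicoumarol and combination pairs and -0.258 to -0.116 for the 6 pairs with different numbers. Deviations within a group sum to 0, so the negative correlations follow from the positive ones and are no separate evidence of pairing. Because of the same-numbered correlations, each difference was tested with limma both without the replicate number and with it as a block. The design with it is called the block below. Log2 differences are on the scale of log2(normalized count + 1), which makes differences of low genes look smaller. Standard errors (SE) are those of the fit without the block. The labelled cell type was checked against markers. All 8 adipocyte markers were present, with a summed level of 62972 to 97118 with dicoumarol and 115802 to 181612 with the combination, while the 8 preadipocyte or fibroblast markers summed to 252369 to 264337 and 204270.0 to 241998. Lpl alone gave most of each adipocyte sum, at 49177 to 73586.5 with dicoumarol and 75668 to 117594 with the combination. The sums show which markers were present and do not compare 1 cell type with another. Of the 8 macrophage markers, Ptprc, Adgre1, Tyrobp, C1qa and C1qb were not listed, and the other 3 summed to 201 to 229 with dicoumarol and 189.6 to 209 with the combination. Endothelial markers summed to 8.78 to 18.1 and 7.10 to 16.9, muscle markers to 63.8 to 95.6 and 72.8 to 101, osteoblast markers to 633 to 702 and 692 to 716, cartilage markers to 3399 to 3729 and 2738 to 3264, and epithelial markers to 0 and 2.03 to 6.95.

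Without the block, 4 of 15723 genes tested (0.0254%) passed limma's Benjamini-Hochberg adjusted threshold of 0.05. All 4 (0.0254%) were higher with the combination and 0 (0.0%) were lower, and 1273 genes (8.1%) had an unadjusted p under 0.05. With the block, 569 genes (3.62%) passed, 392 higher (2.49%) and 177 lower (1.13%), with 2304 (14.7%) at an unadjusted p under 0.05. All 569 moved the same way in all 3 same-numbered pairs, against a background of 21.1% of genes tested that were higher in every pair and 20.8% that were lower. In 289 of the 392 every combination library lay above every dicoumarol library, and in 116 of the 177 every one lay below. Over all genes tested these shares were 7.87% and 6.64%. The calls were made on the same libraries and favour steps that agree between pairs. The agreement of pairs and the separation of groups therefore describe the called genes and are no separate evidence. The rises were larger than the falls: 77 of the 392 were at least 2-fold against 4 of the 177, and the median log2 differences were 0.48 and -0.42, while the median of all genes tested was -0.003. The median standard error of a difference was 0.146 without the block and 0.112 with it. Both counts changed when single libraries were left out. An omission also leaves its group with 2 libraries, and how much of the change comes from the smaller group was not tested. Leaving out each in turn gave 0 to 46 genes without the block and 210 to 381 with it. The omission of combination replicate 2 gave the 46, that of dicoumarol replicate 1 gave 3, and each of the other 4 omissions gave 0. With the block, the counts without dicoumarol replicates 1, 2 and 3 were 278, 243 and 272, and without combination replicates 1, 2 and 3 they were 210, 381 and 251. Of the 569, 128 higher and 34 lower genes passed in all 6 of these fits. In the rest of the text, genes said to rise or fall passed with the block, and the 4 that passed without it are named as such. The counts of gene lists and markers below stand against these shares of all genes tested with the block, 2.49% higher and 1.13% lower.

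The 4 genes that passed without the block were Pcx, Scarb1, Fitm2 and a long non-coding RNA without a symbol. Pcx encodes pyruvate carboxylase, the mitochondrial enzyme that turns pyruvate into oxaloacetate and so supplies citrate for fatty acids and carbon for the glycerol of triglyceride. Its normalized counts were 8661, 6711 and 8445 in dicoumarol replicates 1 to 3 and 16881, 12998 and 12383 in combination replicates 1 to 3. The groups did not overlap, and replicate 1 of the combination was highest. The log2 difference was 0.82 (SE 0.12), with a limma adjusted p of 0.025 without the block and 0.000114 with it. Scarb1 encodes the HDL receptor SR-BI, which takes up cholesteryl ester from lipoproteins. It stood at 376, 341 and 464 with dicoumarol and at 843, 619 and 829 with the combination, a log2 difference of 0.95 (SE 0.15, limma adjusted p 0.0313 without and 2.3e-05 with the block). Here too the groups did not overlap, and replicate 2 was the lowest of each group. Fitm2 encodes an endoplasmic reticulum protein needed for lipid droplets to bud. Its values were 2847, 2159 and 2884 with dicoumarol and 5219.8, 4050.4 and 4402 with the combination, again apart and again lowest in replicate 2. Its log2 difference was 0.80 (SE 0.12, limma adjusted p 0.0313 without and 0.00036 with the block).

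The fourth, ENSMUSG00000121069, is annotated as a long non-coding RNA and had 447, 395 and 413 normalized counts with dicoumarol and 717, 670.4 and 713 with the combination. Its 3 libraries in each group lay closer together than those of the other 3 genes, and the log2 difference was 0.74 (SE 0.10, limma adjusted p 0.025 without and 0.000229 with the block). In the deposited annotation it lies on chromosome 15, 82247110 to 82252084, plus strand. Its nearest neighbours there were ENSMUSG00000120954, 2567 bases away on the same strand, and Cyp2d22, a cytochrome P450 gene, 2644 bases away on the opposite strand. By the same annotation Pcx spans chromosome 19, 4560500 to 4671780, plus strand, Scarb1 chromosome 5, 125354151 to 125418158, minus strand and Fitm2 chromosome 2, 163308299 to 163314549, minus strand. These coordinates do not match GRCm38, the build named in the submitters' processing notes. Of the matched genes, 2.62% had the start that the GENCODE annotation gives on it. Which build they follow was not identified, so they cannot be set beside the promoter positions given on GRCm38.p6. The calls without the block were not stable to single libraries. Omitting replicate 2 or 3 of the dicoumarol group, or replicate 1 or 3 of the combination group, raised the limma adjusted p of Pcx to 0.22, 0.0622, 0.165 and 0.0545, that of Scarb1 to 0.26, 0.0622, 0.369 and 0.166, and that of Fitm2 to 0.26, 0.0622, 0.369 and 0.114. For the non-coding RNA the same omissions gave 0.22, 0.0622, 0.165 and 0.114. Without dicoumarol replicate 1, Scarb1 had 0.0792 and Fitm2 0.0561. With the block, none of the 4 lost its call when any 1 of the 6 libraries was left out, the highest adjusted p being 0.00123 for Pcx, 0.000398 for Scarb1, 0.00533 for Fitm2 and 0.00359 for the non-coding RNA.

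The promoters of Pcx and Fitm2, members of the set called without the block, are shown as the 250 bases before the RefSeq start on GRCm38.p6, 5′ to 3′ on the gene's strand. Pcx lies at chr19:4510222-4510471 on the plus strand (the first of its 2 starts) and Fitm2 at chr2:163472630-163472879 on the minus strand. Capitals mark matches to the motifs listed with the motif shares: in Pcx 3 CCAAT boxes, 1 GC box and 1 E-box, in Fitm2 1 GC box. The window of the other Pcx start, not shown, holds 0 matches.
Pcx: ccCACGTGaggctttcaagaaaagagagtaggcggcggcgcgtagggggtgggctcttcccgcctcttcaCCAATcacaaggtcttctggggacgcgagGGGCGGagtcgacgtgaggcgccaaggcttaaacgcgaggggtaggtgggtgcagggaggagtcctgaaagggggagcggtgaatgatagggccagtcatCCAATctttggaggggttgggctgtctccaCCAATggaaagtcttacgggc
Fitm2: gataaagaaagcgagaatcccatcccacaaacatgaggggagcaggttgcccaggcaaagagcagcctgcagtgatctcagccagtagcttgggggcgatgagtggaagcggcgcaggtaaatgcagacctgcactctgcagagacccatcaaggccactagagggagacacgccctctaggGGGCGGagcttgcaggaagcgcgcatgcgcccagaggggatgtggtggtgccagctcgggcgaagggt

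**Figure D1:**
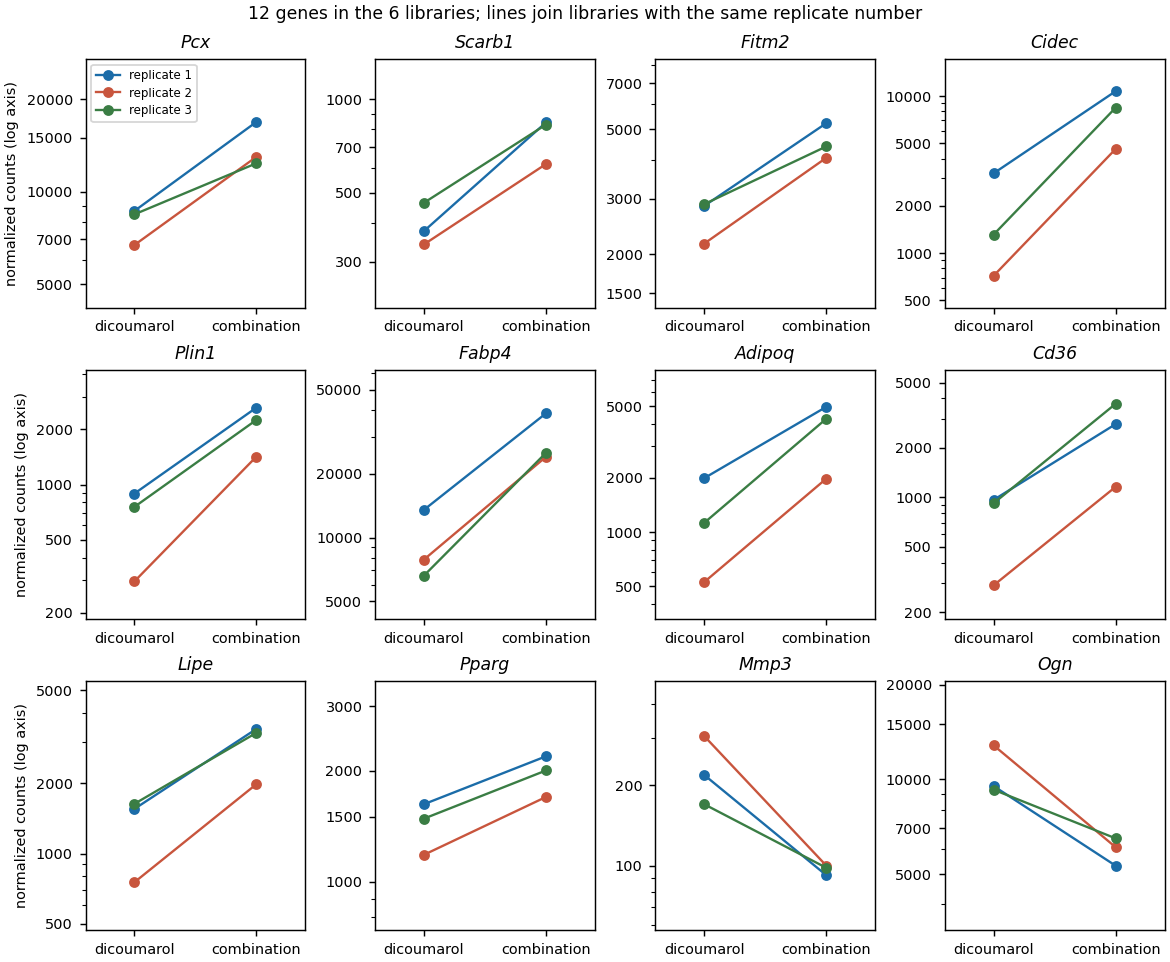
Normalized counts (vertical log axis) of 12 genes in the dicoumarol and combination libraries; each point is a library and each line joins the 2 libraries with the same replicate number (blue 1, red 2, green 3). The lines of the first 10 genes rise in all 3 pairs, as for Cidec from 3224, 718 and 1314 to 10752, 4614 and 8449, and those of Mmp3 and Ogn fall in all 3.

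The largest named rise was that of Cidec, a lipid droplet gene. Cidec encodes the protein that lets small droplets pass lipid to larger ones, and Plin1 encodes perilipin 1, the coat that controls access of lipases. Cidec had 3224, 718 and 1314 normalized counts with dicoumarol and 10752, 4614 and 8449 with the combination, a log2 difference of 2.37 (SE 0.53; limma adjusted p 0.128 without and 0.000114 with the block). Plin1 had 892, 296 and 755 and 2627, 1421 and 2252, a log2 difference of 1.80 (SE 0.38; limma adjusted p 0.112 without and 2.3e-05 with the block). In neither gene did the groups overlap, and in both replicate 2 was the lowest library of each group, so that the spread within a group was wide while all 3 paired steps went up. G0s2, an inhibitor of the lipase ATGL, rose by 1.54 on the log2 scale although its groups overlapped (106, 27.6 and 71.2 against 240.3, 106 and 212). In the list of lipid droplet coat and growth genes 5 of 12 members tested rose with the block and 0 fell, Fitm2 passed without it, and the list's median log2 difference was 0.19. The fifth riser, Plin4, lost its call (limma adjusted p in brackets) without dicoumarol replicate 1 (0.0882), dicoumarol replicate 2 (0.161) and combination replicate 1 (0.17).

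The promoters of Cidec and Plin1, the droplet genes with the largest differences, are given in the same way. Cidec has 2 listed starts, and the window shown is that of the start with the lower coordinate, the downstream one on the minus strand. This window lies at chr6:113434765-113435014 on the minus strand and holds a C/EBP and an AP-1 match. The window of the upstream Cidec start, at chr6:113435761-113436010, holds 0 matches to the same motifs. Plin1 lies at chr7:79732777-79733026 on the minus strand and holds 2 C/EBP matches.
Cidec: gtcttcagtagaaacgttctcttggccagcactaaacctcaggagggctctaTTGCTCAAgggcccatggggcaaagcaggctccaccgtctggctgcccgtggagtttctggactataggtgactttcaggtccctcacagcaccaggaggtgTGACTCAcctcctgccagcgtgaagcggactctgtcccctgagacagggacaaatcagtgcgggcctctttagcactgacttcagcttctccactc
Plin1: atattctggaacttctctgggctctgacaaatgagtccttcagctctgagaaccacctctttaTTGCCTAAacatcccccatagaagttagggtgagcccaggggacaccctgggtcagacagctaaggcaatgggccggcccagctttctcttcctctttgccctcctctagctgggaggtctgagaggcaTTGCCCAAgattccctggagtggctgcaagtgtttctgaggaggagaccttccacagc

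Fatty acid and lipoprotein uptake genes followed, with 8 of 18 rising with the block, 0 falling, 1 passing without it (Scarb1), and a median of 0.15. Fabp4, the fatty acid carrier of fat cell cytosol, had 13517, 7866 and 6604 with dicoumarol and 38660.1, 24082 and 25156 with the combination. The groups did not overlap, and the log2 difference of 1.69 (SE 0.32) had a limma adjusted p of 8.7e-07 with the block against 0.0976 without it. Cd36, the fatty acid translocase of the cell surface, had 967, 292 and 922 and 2795, 1162 and 3718, lowest in replicate 2 of both groups, with a log2 difference of 1.84. Acsl1, which activates fatty acids to their CoA esters, rose by 1.57 and Fabp5, a second carrier, by 1.02 on the log2 scale. Lpl, the secreted lipase that frees fatty acids from lipoproteins, moved less: 73586, 55043 and 49177 with dicoumarol and 117594, 79244 and 75668 with the combination, a log2 difference of 0.61 (SE 0.23; limma adjusted p 0.432 without and 0.00201 with the block). Angptl4, an inhibitor of that lipase named after its value was seen, rose by 0.78.

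In triglyceride synthesis, 8 of 17 genes tested rose with the block and 0 fell, Pcx passed without it, and the median was 0.62. The risers covered successive acylation steps. Gpat3, which adds the first acyl chain to glycerol phosphate, rose by 1.42, Agpat2, which adds the second, by 1.15, and the diacylglycerol acyltransferases Dgat2 and Dgat1 by 1.44 and 0.89 on the log2 scale. Lpin1, the phosphatidate phosphatase between these steps, rose by 0.62. Agpat2, Dgat1 and Lpin1 were named after their values were seen, to complete the sequence of steps. Gpat3 stood at 463, 222 and 427 with dicoumarol and 1039, 558 and 1450.3 with the combination, without overlap, and Dgat2 at 580.4, 175 and 415 and 1107, 564 and 1372, with overlap because combination replicate 2 lay below dicoumarol replicate 1. Among the other risers, Gpd1, which makes glycerol phosphate, and Aqp7, the glycerol channel, had log2 differences of 1.43 and 1.36 but lost their calls without any of 5 and any of 4 of the libraries, with a highest limma adjusted p of 0.219 and 0.0947.

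Lipase genes rose too. Lipe, hormone-sensitive lipase, had 1553, 753 and 1632 normalized counts with dicoumarol and 3421, 1983 and 3291 with the combination, a log2 difference of 1.18 (SE 0.28; limma adjusted p 0.147 without and 2.0e-05 with the block). Pnpla2, adipose triglyceride lipase, had 4630.3, 3187 and 4374 and 9679.7, 6021 and 7303, a log2 difference of 0.91 (limma adjusted p 0.112 without and 3.9e-06 with the block). In both genes all combination libraries lay above all dicoumarol libraries. Of the 10 lipolysis genes tested 5 rose with the block, 0 fell and 0 passed without it, with a median of 0.90. The receptors among them were scarce: Adora1, an adenosine receptor that restrains lipolysis, had 3.53, 3.81 and 2.93 with dicoumarol and 27.4, 11.3 and 19.9 with the combination, and Hcar1, the lactate receptor, 22.1, 3.81 and 7.80 and 37.5, 13.2 and 35.8. Their log2 differences of 2.14 and 1.46 lost their calls in 4 and 5 of the 6 fits that left out a library, with highest limma adjusted p-values of 0.101 and 0.171, and Abhd5, the coactivator of Pnpla2 (0.41), did so in 4 (0.115).

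Of 21 de novo lipogenesis genes tested 6 rose with the block, 0 fell and 0 passed without it, with a median of 0.26. Scd1, the desaturase that makes oleate, had 11267, 7371 and 4444 with dicoumarol and 25881, 14667 and 9532 with the combination, a log2 difference of 1.10 (limma adjusted p 0.379 without and 0.000126 with the block), with overlap because combination replicate 3 lay below dicoumarol replicate 1. Me1, malic enzyme, a source of NADPH, rose by 0.50 and Slc25a1, the citrate carrier, by 0.38. Fasn, fatty acid synthase, had 10135, 8969 and 10972 and 15017, 12486 and 13534, a log2 difference of 0.45 with a limma adjusted p of 0.00952 with the block that was lost without dicoumarol replicate 2 (0.0795) and combination replicate 1 (0.086). Thrsp, a regulator of lipogenesis, differed by 1.50, with its call lost without dicoumarol replicate 2 (0.0781), dicoumarol replicate 3 (0.113) and combination replicate 3 (0.115).

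**Figure D2:**
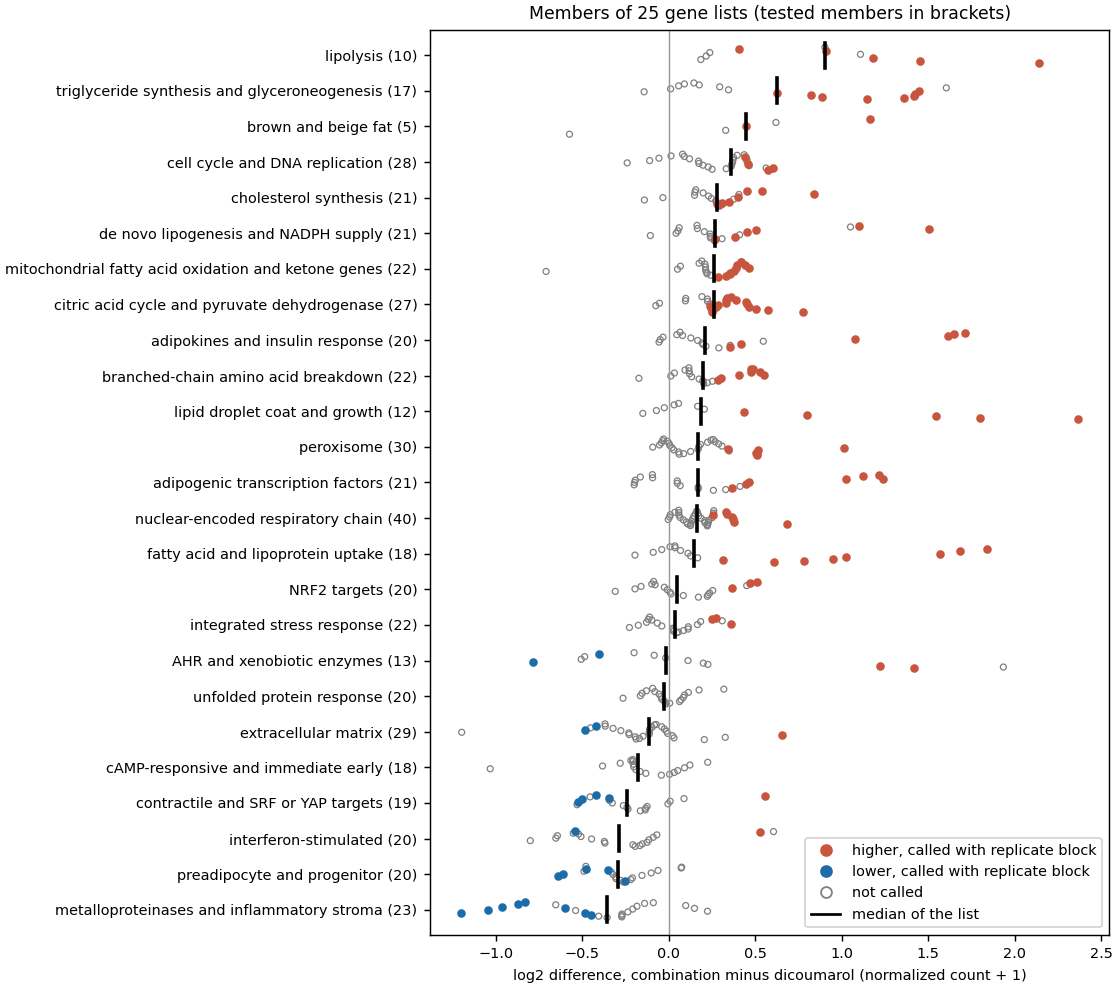
Log2 difference, combination minus dicoumarol (horizontal axis), for each tested member of 25 gene lists; red and blue points passed limma's adjusted threshold with the replicate block, open points did not, and the black bar is the list's median. Medians run from 0.90 for lipolysis to -0.36 for metalloproteinases and inflammatory stroma, and most lists hold many members near 0.

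Among the transcription factors, the step of Pparg was small and those of Cebpa and Nr1h3 were larger. Pparg had 1624, 1184 and 1484 normalized counts with dicoumarol and 2192, 1699.9 and 2006 with the combination. The groups did not overlap, and the log2 difference was 0.46 (SE 0.13; limma adjusted p 0.2 without and 0.000753 with the block). Cebpa, its partner, had 728, 329 and 882 and 1399, 777 and 1631, which overlapped, with a log2 difference of 1.02 (SE 0.39; limma adjusted p 0.431 without and 4.3e-05 with the block). Nr1h3, the oxysterol receptor LXRα, rose by 1.12, from 231, 128 and 255 to 526, 287 and 515, and Ppargc1b, a coactivator of mitochondrial genes, by 1.24, from 89.2, 60.9 and 66.3 to 199, 133 and 183. Both had all combination libraries on top. Of the 21 factors tested 7 rose with the block, 0 fell and 0 passed without it, with a median of 0.17. Klf15, a late adipogenic factor, differed by 1.22, but its call was lost in each of the 6 fits that left out a library, with limma adjusted p-values up to 0.158.

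Among adipokine and insulin response genes 6 of 20 rose with the block, 0 fell and 0 passed without it, with a median of 0.21. Adipoq, adiponectin, had 1994, 528 and 1125 normalized counts with dicoumarol and 4965, 1982 and 4264 with the combination. It rose in every pair, by a log2 difference of 1.71 (SE 0.53; limma adjusted p 0.274 without and 1.6e-05 with the block), yet the groups overlapped because combination replicate 2 lay just below dicoumarol replicate 1. Retn, resistin, had 247, 71.4 and 97.5 and 524, 239 and 431, with the same overlap and a log2 difference of 1.65. Trarg1, a regulator of glucose transporter traffic, rose by 1.08. Slc2a4, the insulin-sensitive glucose transporter GLUT4, was low at 42.4, 6.67 and 13.7 against 73.0, 30.2 and 59.6. Its log2 difference of 1.61 passed with the block (limma adjusted p 0.00663) but not without combination replicate 3 (0.0559).

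All 8 adipocyte markers used to check the cell type (Adipoq, Fabp4, Plin1, Cidec, Lpl, Pparg, Cebpa and Lipe) rose with the block and with any 1 library left out, 0 of 8 passed without the block, and their median was 1.43. The per-pair medians of the 8 were 1.23, 1.51 and 1.29 for replicates 1, 2 and 3. Of the 8 preadipocyte or fibroblast markers 2 fell with the block, 0 passed without it and the median was -0.25. Whether the rises of lipid genes went with the share of fat cells in the dish was not tested.

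Mitochondrial fuel genes rose by small steps and in number. In the citric acid cycle and pyruvate dehydrogenase list 16 of 27 genes rose with the block, 0 fell and 0 passed without it. Its median log2 difference was 0.26. Idh3a, a subunit of isocitrate dehydrogenase, had 2428, 1676 and 2122 with dicoumarol and 4232, 2760.1 and 3721 with the combination, without overlap, and a log2 difference of 0.78 (SE 0.16; limma adjusted p 0.112 without and 3.9e-05 with the block). Mdh1, cytosolic malate dehydrogenase, rose by 0.57 and Pdhb, a subunit of pyruvate dehydrogenase, by 0.50. With Cs, citrate synthase (0.39), and Suclg1, a succinyl-CoA ligase subunit (0.36), both named after their values were seen, these made up the 5 of the 16 that passed whichever 1 library was left out. Pdhx, a further subunit of the complex (0.46), was lost without combination replicate 1 (0.0542) and combination replicate 3 (0.0501).

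Mitochondrial fatty acid oxidation had 11 risers of 22 with the block, 0 fallers, 0 genes passing without it and a median of 0.26. Only 2 of the 11, Acadvl, the very long chain dehydrogenase (0.42), and Acadm, the medium chain one (0.37), passed whichever library was left out. Cpt2, which completes carnitine import (0.46), was lost without dicoumarol replicate 2 (0.0753) and combination replicate 1 (0.0733); Etfdh, the flavoprotein oxidoreductase (0.42), was lost without dicoumarol replicate 2 (0.098), combination replicate 1 (0.0974) and combination replicate 3 (0.0638); and Ucp2, an inner membrane carrier (0.44), was lost without 4 of the libraries (highest limma adjusted p 0.0878).

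Branched-chain amino acid breakdown, which feeds acyl-CoA to fat cells, had 8 risers of 22 with the block, 0 fallers, 0 passing without it and a median of 0.20. Bcat2, the first enzyme, rose from 2082, 1558 and 2060.4 to 3003, 2257 and 2937, without overlap, by 0.52, and Bckdhb, a subunit of the committed dehydrogenase, by 0.49. Of the others that the naming rule took, Dbt, another subunit (0.55), was lost without 4 of the libraries (highest limma adjusted p 0.179) and Aldh6a1 (0.48), which acts in valine breakdown, without dicoumarol replicate 2 (0.0846) and combination replicate 1 (0.0877). In the peroxisome list 6 of 30 rose with the block, 0 fell, 0 passed without it and the median was 0.17. Pex11a, which drives peroxisome division, rose by 0.51 and Crat, carnitine acetyltransferase, by 0.51. Pex16, a membrane assembly factor (0.52), was lost without dicoumarol replicate 1 (0.0571), and Acaa1b, a thiolase (1.01), without 5 of the libraries (highest limma adjusted p 0.0931).

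Of 40 nuclear-encoded respiratory chain genes 39 had a difference above 0, against 7722 of all 15723 genes tested. With the block 7 rose, against 2.49% of all genes tested, and 0 passed without it. The median was 0.16. Cycs, cytochrome c, had 2133, 1486 and 1601 and 3165, 2160.1 and 3073, apart in all libraries, and rose by 0.68, and Cyc1, cytochrome c1, by 0.37. Uqcrfs1, the Rieske protein (0.37), was lost without combination replicate 3 (0.0511), and Ndufs1 of complex I (0.38) without 4 of the libraries (highest limma adjusted p 0.107). In the brown and beige fat list 5 genes could be tested, 2 rose with the block, 0 fell and 0 passed without it, with a median of 0.45. Kcnk3, a potassium channel of brown fat, rose by 1.16, from 207, 118 and 247 to 489, 248 and 565. Ebf2, a factor of beige precursors (0.45), lost its call in all 6 omissions (highest limma adjusted p 0.168). Ucp1, the uncoupling protein that defines thermogenic fat, was listed at 0 in all 3 dicoumarol libraries and in all but 1 combination library, where it had 1.01, and was too low to test.

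Cholesterol synthesis had 8 risers of 21 with the block, 0 fallers and 0 genes passing without it, with a median of 0.28. Fdps, farnesyl diphosphate synthase (0.45), was the 1 of the 8 that passed whichever library was left out. Cyp51, lanosterol demethylase, differed by 0.84 and was lost without combination replicate 3 (0.0518), Idi1, an isomerase (0.54), was lost without dicoumarol replicate 2 (0.0854), combination replicate 1 (0.0636) and combination replicate 3 (0.0729), and Insig1, the sterol sensor (0.40), without 4 of the libraries (highest limma adjusted p 0.141).

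Outside these lists Fam83a and Mc5r were among the largest rises. Fam83a, of the FAM83 family, had 314, 93.3 and 239 normalized counts with dicoumarol and 814, 433 and 775 with the combination, a log2 difference of 1.75. Mc5r, a melanocortin receptor, had 90.1, 40.0 and 94.6 and 339, 154 and 229, a log2 difference of 1.70. In both the groups did not overlap. Atp1b1, the beta 1 chain of the sodium pump, went the other way, with 2985, 3378 and 1913 with dicoumarol and 1530.0, 1848 and 1301 with the combination. Every combination library lay below every dicoumarol library, and Atp1b1 fell by 0.80 on the log2 scale (limma adjusted p 5.6e-05 with and 0.29 without the block).

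The falls were led by Mmp3, stromelysin 1, a matrix-degrading protease. It had 218, 305 and 169.7 normalized counts with dicoumarol and 92.3, 100.2 and 98.3 with the combination, fell by 1.20 on the log2 scale (SE 0.26) and had a limma adjusted p of 0.000476 with and 0.112 without the block. The dicoumarol libraries were spread and the combination libraries close together, and the groups did not overlap. Of the 23 metalloproteinase and inflammatory stroma genes tested 8 fell with the block, 0 rose and 0 passed without it, with a median of -0.36. Cxcl13, a B cell chemokine, fell by 0.97, from 229.7, 267 and 364 to 100.4, 146 and 203, and Timp3, a matrix-bound inhibitor of these proteases, fell by 0.84, from 1194, 1403 and 439 to 572, 899 and 251, where the groups overlapped. Il1rl1, the IL-33 receptor (-1.04), was lost without dicoumarol replicate 1 (0.0609) and combination replicate 1 (0.079), and Ccl2, a monocyte chemokine (-0.87), without dicoumarol replicate 1 (0.13), dicoumarol replicate 2 (0.075) and combination replicate 1 (0.133). The Mmp3 promoter is shown as that of the gene with the largest named fall. It lies at chr9:7445572-7445821 on the plus strand of GRCm38.p6, and holds a C/EBP, an AP-1 and a TATA match.
Mmp3: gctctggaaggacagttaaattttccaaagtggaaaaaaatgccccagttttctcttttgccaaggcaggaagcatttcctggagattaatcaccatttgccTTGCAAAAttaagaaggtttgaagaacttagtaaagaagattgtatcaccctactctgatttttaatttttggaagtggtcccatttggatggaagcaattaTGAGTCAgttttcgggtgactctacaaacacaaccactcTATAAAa

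Ogn, osteoglycin, a small leucine-rich proteoglycan of the matrix, had 9519.8, 12827 and 9269.7 with dicoumarol and 5311, 6081 and 6489 with the combination. It fell by 0.81 on the log2 scale (SE 0.19; limma adjusted p 0.147 without and 0.00123 with the block), without overlap. Myo7a, an unconventional myosin, fell by 0.88, from 322, 357 and 253 to 213, 188 and 116. The extracellular matrix list moved down by small steps, with a median of -0.11. Of its 29 members tested 5 had a difference above 0, against 7722 of all 15723 genes tested. In all 3 pairs 18 were lower (20.8% of all) and 2 were higher (21.1% of all), and 3 had every combination library below (6.64% of all). With the block 1 of 29 rose and 2 fell, against 2.49% and 1.13% of all genes tested, and 0 passed without it. Thbs2, thrombospondin 2, fell by 0.49. Dcn, decorin (-0.42), and Col15a1, a basement membrane collagen that was higher (0.66), each lost the call without 4 of the libraries, with highest limma adjusted p-values of 0.0953 and 0.0825. Col1a1, the main fibrillar collagen chain, did not pass in either fit, at 75323, 88964 and 95016 against 66994, 77232 and 82107 (log2 difference -0.19, limma adjusted p 0.329 with the block).

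Of 20 preadipocyte and progenitor genes 5 fell with the block, 0 rose and 0 passed without it, with a median of -0.29, and none of the 5 held in all omissions. Pdgfrb, the PDGF receptor beta (-0.35), and Ly6a, a progenitor surface protein (-0.61), were lost in 3 of the 6, Sfrp2, a Wnt inhibitor (-0.48), and Pdgfrl (-0.64), a PDGF receptor-like protein, in 5, with highest limma adjusted p-values of 0.0609, 0.0687, 0.13 and 0.0784. Dlk1, the preadipocyte factor that holds back differentiation, had 21524, 20840.0 and 20384 with dicoumarol and 13972, 18399.7 and 12794 with the combination. Its groups did not overlap, but its log2 difference of -0.49 had a limma adjusted p of 0.0531 with the block and 0.255 without it. The contractile and SRF or YAP list had 4 fallers and 1 riser of 19 with the block, 0 genes passing without it and a median of -0.24. Tpm1, tropomyosin 1, fell by 0.42 and Cnn2, calponin 2, by 0.53. Acta2, smooth muscle actin (-0.50), was lost in 5 omissions (highest limma adjusted p 0.216).

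The stress, xenobiotic, interferon, immediate early and cell cycle lists had 0 calls each without the block. With it, 2.49% of all genes tested rose and 1.13% fell. Where 1 of these lists had calls in a direction, its share lay above that of all genes, though on few calls. Nqo1, the enzyme that dicoumarol inhibits, had 1435, 1614 and 1114 with dicoumarol and 1323, 1621 and 1138 with the combination, overlapping, with a log2 difference of -0.03 (95% interval -0.18 to 0.12 with the block). Its sign turned when 1 library was left out, in 3 of the 6 omissions without the block and 2 of the 6 with it. Of 20 NRF2 targets 3 rose with the block and 0 fell (median 0.05): Taldo1, a pentose phosphate enzyme (0.47), Cbr3, a carbonyl reductase (0.51), and Hmox1, heme oxygenase 1 (0.36), of which Cbr3 was lost in 6 and Hmox1 in 5 omissions (highest limma adjusted p 0.193 and 0.148). The integrated stress response had 3 risers of 22 and 0 fallers (median 0.04), Psat1 (0.36) and Mthfd2 (0.25) of serine and folate metabolism and the factor Cebpg (0.27), lost in 6, 6 and 5 omissions with highest limma adjusted p-values of 0.144, 0.175 and 0.237. The unfolded protein response had 0 of 20 (median -0.03) and the cAMP-responsive and immediate early list 0 of 18 (median -0.18) with the block.

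The AHR and xenobiotic list had 2 risers and 2 fallers of 13 with the block (median -0.02). The risers Ces1d (1.42) and Ces1f (1.22) are carboxylesterases of fat and liver, close paralogs whose reads the counting may have split; the call of Ces1d was lost in 4 omissions (highest limma adjusted p 0.162) and that of Ces1f without dicoumarol replicate 3 (0.0512). The fallers, Fmo2, a flavin monooxygenase (-0.78), and Aldh3a1, an aldehyde dehydrogenase (-0.40), were lost in all 6 (highest 0.145 and 0.298). Cell cycle and DNA replication genes had 4 risers of 28 with the block, 0 fallers and a median of 0.36. Of the 28, 25 had a difference above 0, 21 were higher in all 3 pairs (21.1% of all genes tested) and 12 had every combination library on top (7.87% of all), while 2.49% of all genes rose with the block. The 4 risers, the cyclins Ccne1 (0.60) and Ccnb2 (0.46), the mitotic kinase Aurkb (0.58) and Cdc20 (0.44), an activator of the anaphase complex, were lost in 3, 5, 4 and 6 omissions, with highest limma adjusted p-values of 0.109, 0.145, 0.259 and 0.276. The interferon-stimulated list had 1 riser and 1 faller of 20 (median -0.29), and 14 of the 20 were lower in all 3 pairs (20.8% of all genes tested) and 7 had every combination library below (6.64% of all). The faller, Bst2, a membrane tether of viruses (-0.54), was lost in 5 omissions (highest limma adjusted p 0.225).

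**Figure D3:**
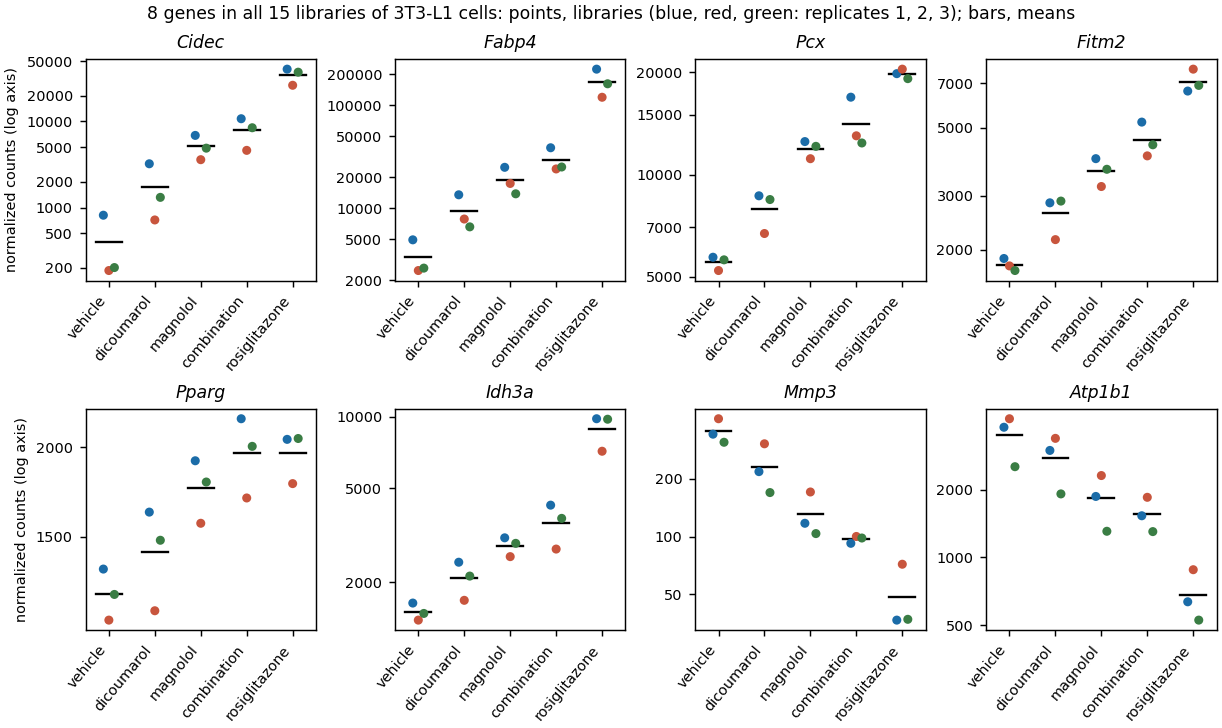
Normalized counts (vertical log axis) of 8 genes in all 15 3T3-L1 libraries by group; points are libraries (blue, red and green for replicates 1, 2 and 3) and bars are group means. For Cidec the combination mean of 7938 lies between magnolol alone at 5125 and rosiglitazone at 34692, while for Pparg the combination and rosiglitazone means are close, at 1966 and 1963.

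Levels in the other 3T3-L1 groups place the 2 compared ones. Cidec averaged 401 ± 359 normalized counts in the vehicle group and 1752 ± 1309 in the dicoumarol group (SD, n = 3 libraries each). It reached 5125 ± 1656 in the magnolol group, 7938 ± 3101 in the combination group and 34692 ± 7438 in the rosiglitazone group. In that order, the ranges of vehicle and dicoumarol overlapped, as did those of magnolol and the combination, and the other neighbours were apart. Pcx averaged 5518 ± 259.8, 7939 ± 1069, 11913 ± 704, 14087 ± 2439 and 19779 ± 634 in the same order, with overlap between magnolol and the combination alone. Mmp3 ran the opposite way, at 355 ± 51.8, 231 ± 68.4, 131 ± 35.5, 96.9 ± 4.13 and 48.5 ± 20.1, and the ranges of dicoumarol and magnolol touched. Dicoumarol alone against vehicle gave 0 genes (0.0%) without the block and 79 (0.502%) with it. Cidec, Cd36, Plin1, Adipoq, Fabp4 and Pcx were among the 79. They were higher with dicoumarol than with vehicle by log2 differences of 2.21, 1.55, 1.65, 1.46, 1.48 and 0.52.

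The difference that went with magnolol was also measured without dicoumarol, as magnolol alone against vehicle, whose difference is taken between 6 other libraries. The 2 contrasts share no library in their differences, but they come from 1 fit over the 15 libraries, with common variances and, with the block, common replicate terms. That contrast had 169 higher genes (1.07%) and 24 lower (0.153%) without the block, and 553 higher (3.52%) and 227 lower (1.44%) with it. Of the 392 genes that rose on top of dicoumarol 391 (99.7%) were also higher with magnolol alone, and of the 177 that fell 176 (99.4%) were also lower, against the same sign in 74.0% of all genes tested. Of the 392, 336 also passed in the magnolol contrast with the block, 85.7% of these and 60.8% of the 553; of the 177, 127 did, 71.8% of these and 56.0% of the 227. For several adipocyte genes the log2 difference was smaller in the presence of dicoumarol. That of Cidec was 2.37 with and 3.98 without dicoumarol, that of Cd36 1.84 and 3.16, that of Plin1 1.80 and 3.06, that of Adipoq 1.71 and 2.88, and that of Fabp4 1.69 and 2.51. Pcx (0.82 and 1.11), Pparg (0.46 and 0.49) and Mmp3 (-1.20 and -1.46) lay nearer to equal.

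A test of the difference between these 2 differences, the interaction of magnolol and dicoumarol, called 0 of 15723 genes in limma (0.0%) without the block and 0 (0.0%) with it. At an unadjusted p under 0.05 there were 78 (0.496%) and 194 (1.23%), and the smallest adjusted p was 1 without and 0.765 with the block. The interaction values follow with the standard error of the fit without the block and the unadjusted limma p without and with it. They were -1.61 for Cidec (SE 0.76; 0.0487 and 0.000679), -1.32 for Cd36 (SE 0.70; 0.0789 and 0.000615), -1.27 for Plin1 (SE 0.54; 0.0319 and 9.7e-05), -1.17 for Adipoq (SE 0.75; 0.137 and 8.1e-05) and -0.83 for Fabp4 (SE 0.45; 0.0829 and 0.000169), and none passed the adjustment. Of the 31 named genes that rose at least 2-fold, 29 had an interaction below 0. Over all genes tested the median interaction was -0.003. Of the same 31, 22 had an unadjusted limma p under 0.05 with the block and 2 without it. Of all 76 named genes that rose, 62 had an interaction below 0, and the median was -0.16 against -0.69 for the 31. An unadjusted limma p under 0.05 was seen for 25 of the 76 with the block and for 2 without it. Of the 20 named genes that fell, 9 had an interaction below 0 and 0 had an unadjusted p under 0.05 with the block.

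**Figure D4:**
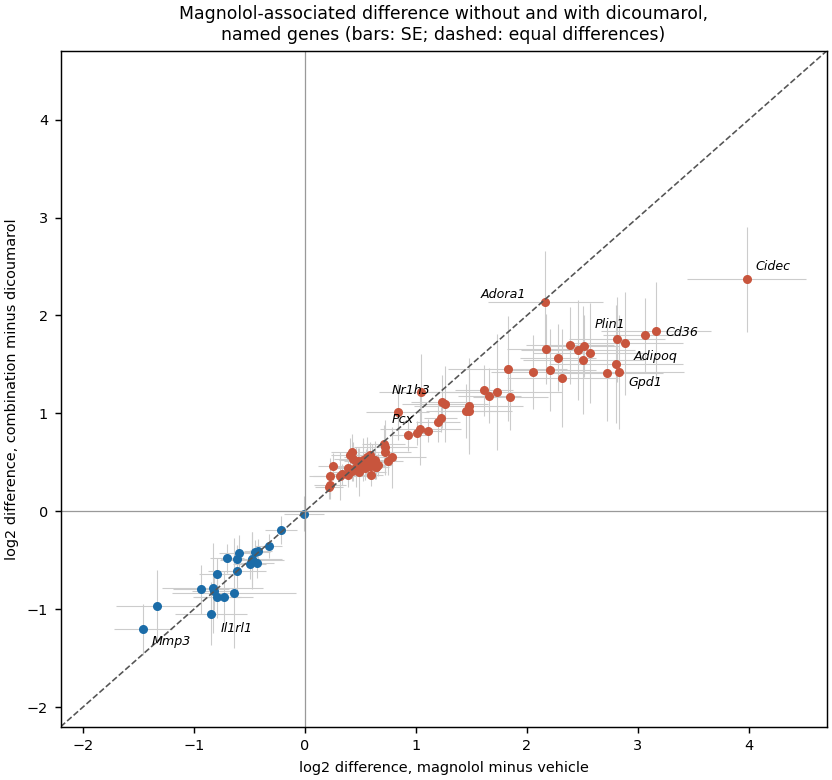
Log2 difference of 99 named genes for magnolol minus vehicle (horizontal axis) and for combination minus dicoumarol (vertical axis); bars are standard errors without the block, red and blue mark rises and falls, and the dashed line marks equal differences. Cidec (3.98 and 2.37) and most other large risers lie below the line, and Mmp3 (-1.46 and -1.20) lies close to it.

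Promoter letters were compared as a description. RefSeq promoters were matched by symbol for 10167 of the 15723 genes tested, 285 of the 392 higher and 136 of the 177 lower genes, and a gene with several starts counted once if any of its windows matched. Both strands of the 250 bases before the start were searched, and matches of different motifs may overlap. The DR1 element of PPARγ and RXR, a pair of AGGTCA half-sites in 1 direction with 1 base between them, was in 0.0492% of all genes' promoters and in 0% of each called set. Its half-site AGGTCA was in 12.6% of all, 17.5% of the higher and 12.5% of the lower genes. The C/EBP pattern TTGCNNAA was in 8.88%, 10.2% and 16.2%, and the AP-1 pattern TGANTCA in 5.44%, 7.02% and 5.15%. The CCAAT box was in 41.2%, 48.1% and 37.5%, the GC box GGGCGG in 63.4%, 67.0% and 61.8%, the E-box CACGTG in 9.86%, 7.02% and 5.88% and the TATA box TATAAA in 8.02%, 4.91% and 11.8%. Of all 32851 windows of this length in the table, 14.0% held AGGTCA, 9.56% TTGCNNAA, 6.75% TGANTCA, 33.8% CCAAT, 32.7% GGGCGG, 6.02% CACGTG, 12.4% TATAAA and 0.0335% the full element. These shares are counts of letters and were not tested.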

How the data were processed

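Enriched mRNA was sequenced from 15 libraries of 3T3-L1 cells in 5 groups of 3. The submitters' processing notes name bcl2fastq 2.19.1.403, STAR, DESeq2 and GRCm38. The deposited table holds the authors' signal values, counts per gene normalized with DESeq2, per the labels; per the file headers it gives each gene's identifier, symbol, position and length, and 698 genes have no symbol. Reads per library were estimated from the smallest step of each library's values; 78.5% to 79.8% of low values were then whole numbers of reads (within 0.02, up to 20 reads), so no count test was run.

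Values were taken as log2(value + 1). The 15723 genes whose mean over these 15 libraries reached 10 were fitted with limma 3.58.1 (R 4.3.3) in all 5 groups, with moderated variances and a trend, two-sided, Benjamini-Hochberg adjusted at 0.05. The block adds the replicate number; the labels do not say what the number marks, and the pairing rests on the deviations, whose correlation exceeded 0.1 in all 30 same-numbered pairs of libraries (lowest 0.106). The script was tested on simulated data. The members and the 25 gene lists were chosen with earlier results of these data known. Named genes were every gene called without the block, the 8 largest rises and 8 largest falls called with it at a mean of at least 100, a panel of 18, and up to 4 called members of each list, 100 in all, a few of which are not reported here. Alternatives covered the pseudocount, the minimum level, the variance trend, quantile normalization, the groups fitted and single libraries. Figures were drawn with matplotlib 3.10.9.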

Additional observations from a re-analysis of the deposited data

How the results depend on the processing

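The count of 4 genes without the replicate block became 569 with the block and stayed at 4 with a pseudocount of 0.5 or 5, no filter on low values or a minimum mean of 50. It was 0 without the variance trend, 8 with quantile normalization and 0 when the 2 compared groups alone were fitted; leaving out 1 library gave 0 to 46. With the block, the count was 1476 in the 2 compared groups alone (851 higher and 625 lower, 57.7% higher against 68.9%), 599 with quantile normalization, 580 with a minimum mean of 50, 582 with a pseudocount of 5 and 347 without the trend; leaving out dicoumarol replicates 1, 2 and 3 gave 278, 243 and 272, and combination replicates 1, 2 and 3 gave 210, 381 and 251, of which 71.9% to 78.8% were higher. The interaction gave 0 calls in every setting that was run; its smallest limma adjusted p was 0.504 without the trend, and the number at an unadjusted p under 0.05 was 455 with no filter and 19 with a minimum mean of 50. Of the 96 named genes called with the block, 57 to 75 were still called without 1 library and 69 without the trend. The log2 difference of Nqo1 changed sign to 0.0061 without dicoumarol replicate 1, 0.0911 without dicoumarol replicate 2 and 0.0947 without combination replicate 3 (range over the 6 omissions -0.1764 to 0.0947), and with the block to 0.0019 without dicoumarol replicate 1 and 0.0016 without combination replicate 1; the cause was not tested. The edgeR fit was not run because whole reads were not recovered. Leaving out 1 library leaves its group with 2 and assumes that they vary like the other groups.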

Other observations

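The genes below lie outside the lists and the naming rule and were chosen after their values were seen, some higher and some lower. Plaat3, the phospholipase of fat tissue that acts on membrane lipids, had 836, 398 and 647 normalized counts with dicoumarol and 2009.7, 964 and 1545 with the combination, without overlap, a log2 difference of 1.26 (limma adjusted p 8.5e-07 with and 0.15 without the block). Noct, nocturnin, a rhythmic phosphatase, had 407, 266 and 328 and 1035, 518 and 817, a log2 difference of 1.21. Sort1, sortilin, a sorting receptor of insulin-responsive vesicles, rose by 1.02, and Slc25a10, the mitochondrial dicarboxylate carrier, by 0.84. Receptor-linked genes rose from low levels: Mrap, an accessory protein of melanocortin receptors, from 132, 24.8 and 33.2 to 224, 102 and 134, with overlap, and Prlr, the prolactin receptor, from 79.5, 52.4 and 41.9 to 187, 86.9 and 181, without it. Lgals12, a galectin of fat cells, rose by 1.65, with overlap. Lower with the combination were Klf4, a transcription factor, at 1277, 1703 and 1161 against 761, 1046 and 851, Spp1, osteopontin, at 527, 546 and 648 against 281, 360.0 and 434, and Adm, adrenomedullin, at 306, 428 and 281 against 205, 242 and 181. All 10 passed with the block whichever 1 of the 6 libraries was left out, and none passed without the block. Of all genes called with the block, 128 of the 392 higher and 34 of the 177 lower did so. The 10 of 10 therefore reflects the choice of genes and is no support for the pattern.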
